A study of Homo sapiens with 6 samples.

Results

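The nuclear genes of oxidative phosphorylation were examined in SCC-9 cells, a long-established cell line from a human tongue carcinoma of squamous type. Members were the table's genes whose symbols begin with NDUF, UQCR, ATP5 or COX and a digit, with SDHA, SDHB, SDHC, SDHD, CYC1, CYCS and the SDHAF genes and without hyphenated symbols: 109 of the 17862 genes listed. By complex they were 37 genes of complex I, 4 of complex II, 10 of complex III, the cytochrome c gene CYCS, 17 of complex IV with NDUFA4 and NDUFA4L2, 19 of complex V and 21 assembly factors, among them the 4 SDHAF genes. The SDHAF genes were kept because the grouping of the set names them. A plasmid-borne short hairpin RNA directed at MTHFD2 (shMTHFD2, 3 libraries) was compared with a control hairpin (shNC, 3 libraries). Both groups were SCC-9 grown with 10% serum and 400 ng/mL hydrocortisone. The series text speaks of knock-out cells with 3 biological replicates per condition, whereas the treatment label describes knockdown. Whether the cells were a pool or a clone is not given in the sources used here.

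Oxidative phosphorylation passes electrons from NADH (complex I) and succinate (complex II) through ubiquinone, complex III and cytochrome c to oxygen at complex IV, and complex V uses the resulting proton gradient to make ATP. Most subunits are nuclear-encoded and are joined in the inner membrane with subunits encoded by mitochondrial DNA, with the help of assembly factors. MTHFD2 is an enzyme of the folate pathway in the same organelle, where one-carbon units also serve the synthesis of proteins encoded by mitochondrial DNA. None of the 13 mitochondrially encoded subunits is analysed here.

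The libraries held 18676999 to 19838989 estimated read counts. MTHFD2 was at 46.9, 35.7 and 65.7 CPM (read counts scaled to library size) in shMTHFD2 replicates 1, 2 and 3, against 190, 200 and 182 CPM in shNC, and fell by 1.95 on the log2 scale (SE 0.21, adjusted p = 0.00924 in edgeR's quasi-likelihood test). The shMTHFD2 libraries varied more among themselves than the shNC libraries, with a chi-square per degree of freedom of 27.2 to 77.4 between shMTHFD2 replicates and 3.5 to 7.47 between shNC replicates. Replicate 2 of shMTHFD2 stood farthest from the shNC libraries on the first principal component. All 10 squamous epithelial markers were tested and 0 changed in edgeR or DESeq2 (0 at an unadjusted p under 0.05). Their summed level was 9051 to 11204 TPM (a level per gene length, scaled to the library) in shMTHFD2 and 9764 to 10709 TPM in shNC. Of 7 fibroblast markers only COL1A1, COL1A2 and DCN could be tested. The summed fibroblast level was 12.7 to 24.2 TPM in shMTHFD2 and 6.09 to 8.73 TPM in shNC, with COL3A1 and PDGFRA near 0. Most of this sum was COL1A1, at 9.6 to 22.5 TPM in shMTHFD2 and 4.23 to 6.51 TPM in shNC. COL1A2 (log2 0.21, adjusted p = 0.668 in edgeR) and DCN (log2 0.02, adjusted p = 0.971 in edgeR) did not pass. COL1A1 had a log2 fold change of 1.31 (adjusted p = 0.0654 in edgeR and 0.00156 in DESeq2, which called it higher; log2 0.85 and adjusted p = 0.0207 in edgeR without shMTHFD2 replicate 2, and log2 1.57 and adjusted p = 0.016 without shMTHFD2 replicate 3). The 6 endothelial markers summed to under 1 TPM in each library, and the leukocyte sum of 146 to 209 TPM in shMTHFD2 and 144 to 160 TPM in shNC was mostly CD68. The 5 skeletal muscle markers in the table summed to 0.78 to 1.6 TPM in shMTHFD2 and 0.78 to 1.16 TPM in shNC. The part of these markers in the results below was not tested. In such bulk samples, fewer cells of a kind and less RNA per cell cannot be told apart.

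The calls lay in ATP synthase (complex V), complex I and its assembly. Of 104 members with enough counts to be tested, 8 fell and 0 rose (adjusted p under 0.05, edgeR's quasi-likelihood test with Benjamini-Hochberg adjustment over all genes), where 2.47% of all 13710 tested genes fell and 2.97% rose (1.53% and 3.32% with upper quartile scaling). At an unadjusted p under 0.05, 39 members were lower (14.1% of all genes) and 1 was higher (14.6%). The 8 that fell were the complex I subunits NDUFA6, NDUFS6 and NDUFB10, the ATP synthase subunits ATP5MF, ATP5MC3, ATP5ME and ATP5MC1, and the complex I assembly factor NDUFAF4. A negative log2 fold change was seen for 90 of the 104 members, against 49% of all tested genes, and the median was -0.20 against 0.01. With upper quartile scaling 80 members were negative, against 5796 of all 13710 tested genes. The shMTHFD2 and shNC libraries did not overlap, with shMTHFD2 lower, for 60 members, where this held for 19.8% of all genes; shMTHFD2 was higher without overlap for 1, COX6B2, where this held for 18% of all genes.

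**Figure D1:**
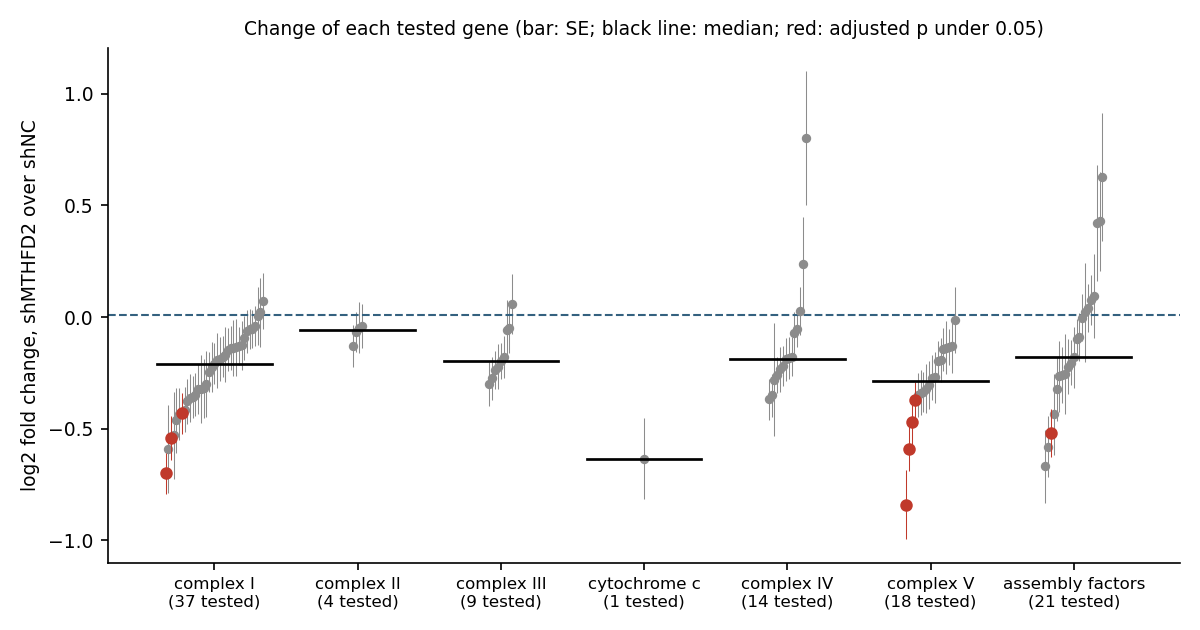
Log2 fold change of each tested gene, shMTHFD2 over shNC (y axis), by complex (x axis), with the SE of the fit as a bar, the median of a complex as a black line and the median of all tested genes as a dashed line. The 8 genes past the threshold are red: 3 lie in complex I, 4 in complex V and 1 among the assembly factors.

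These counts changed with the library left out, as did the calls over all genes. Without shMTHFD2 replicate 1, or without shNC replicate 1, 2 or 3, the number of members called was 0 each time. In these fits 0.0504%, 0%, 0% and 0.0215% of all genes were called lower, and 0.144%, 0.00716%, 0.00716% and 0.0143% higher. With so few calls over all genes, the count of 0 cannot set the members apart from other genes. Without shMTHFD2 replicate 2, 22 members fell and 0 rose (7.09% and 7.14% of all genes), and without shMTHFD2 replicate 3, 21 fell and SDHAF1 rose (12.6% and 13.6%). All 8 genes were among the calls of both of these fits. DESeq2 called 22 members lower and 0 higher, where it called 6.69% of all genes lower and 8.07% higher. The median over members stayed between -0.22 and -0.16 with any library left out.

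Gene length and level moved with the fold change over all genes. By counts per TPM, a measure of gene length, 66 of the 104 lay in the shortest 10% of tested genes. Their median log2 fold change was -0.22, and that of the other 1305 genes in this range was -0.07. Members were also abundant: 15, 24 and 14 lay in the 3 highest steps of 10% by mean log2 CPM, in order of rising level. There the median of the members was -0.23, -0.18 and -0.19 and that of the other genes -0.07, -0.07 and -0.10. The part of length and level in the result was not tested. Pseudogenes named after 59 of the 109 members are listed in RefSeq, 264 in all and 45 of them for CYCS, and how the authors' counting treated reads shared with such copies is not given in the sources used here.

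Summed over its genes, the transcript level of complex V was 4763, 4400 and 4682 TPM in shMTHFD2 replicates 1, 2 and 3, against 5382, 5561 and 5460 TPM in shNC, a mean of 84.4% of control. Complex I summed to 4869, 4586 and 4922 TPM in shMTHFD2 and 5473, 5648 and 5702 TPM in shNC, or 85.5% of control. Both sums lay below control in every shMTHFD2 library. Complex IV summed to 4421, 4338 and 4271 TPM in shMTHFD2 and 4531, 4645 and 4757 TPM in shNC, 93.5% of control and again without overlap. Complex III was at 94.7% of control and complex II at 96.9%, and for both the libraries of the groups overlapped. In summed CPM complex III was at 90.8% of control and its groups did not overlap. The assembly factors summed to 786, 830 and 847 TPM in shMTHFD2 and 896, 930 and 902 TPM in shNC. All 109 genes together took 1.72, 1.66 and 1.69% of the TPM in shMTHFD2 and 1.87, 1.93 and 1.93% in shNC. No test was made on these sums, and no test of a difference between complexes.

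**Figure D2:**
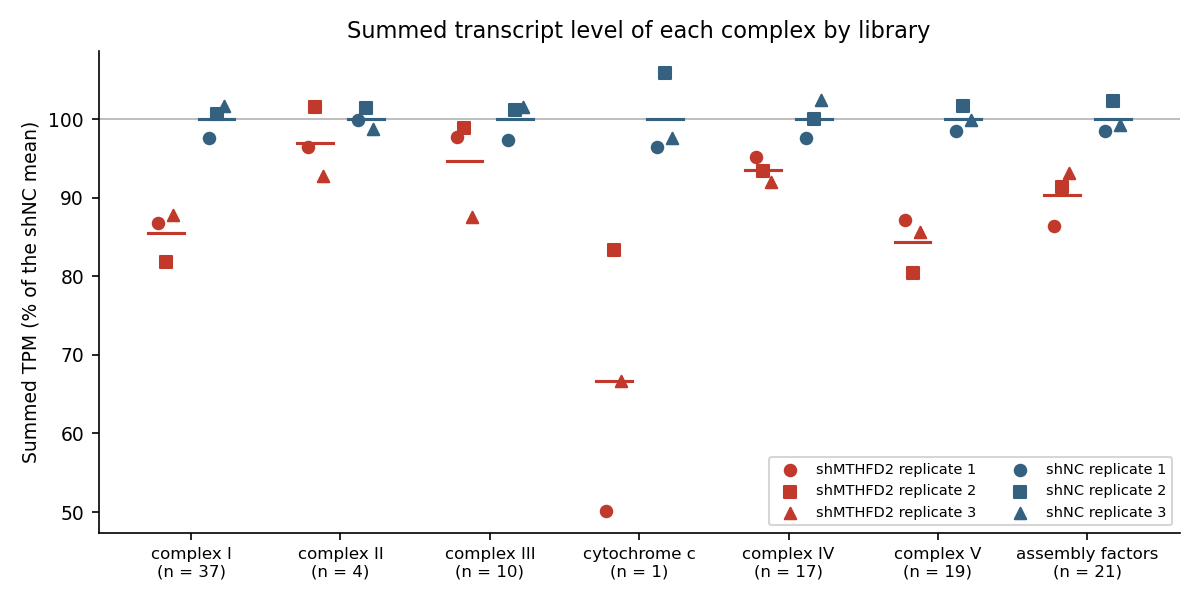
Summed TPM of each complex in each library as a percent of the shNC mean (y axis, not starting at 0), with shMTHFD2 libraries in red, shNC libraries in blue, marker shapes for the replicate number and short lines for the means. The shMTHFD2 libraries lie at 80.5 to 87.1% for complex V and at 92.8 to 102% for complex II.

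Complex I, the NADH dehydrogenase, has 7 nuclear-encoded core subunits that carry its redox centres and quinone site, and many accessory subunits. NDUFA6, an accessory subunit of the LYR family on the matrix arm, was at 26.6, 28.2 and 28.9 CPM in shMTHFD2 and 44.5, 46.4 and 45.1 CPM in shNC. This was the complex's largest fall (log2 -0.70, SE 0.09, adjusted p = 0.0163). NDUFS6, a zinc-binding accessory subunit of the NADH-oxidising module, was at 74.1, 62.4 and 71.9 CPM in shMTHFD2 and 96.7, 104 and 103 CPM in shNC (log2 -0.54, SE 0.10, adjusted p = 0.0309). NDUFB10, of the membrane arm, was at 38.5, 40.1 and 38.6 CPM in shMTHFD2 and 49.6, 54.7 and 53.8 CPM in shNC (log2 -0.43, SE 0.09, adjusted p = 0.0428). For all 3 genes each shMTHFD2 library lay below each shNC library.

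Of the 37 complex I genes, 34 had a negative log2 fold change, where 49% of all tested genes did. With upper quartile scaling 31 did, where 5796 of all 13710 tested genes did. Of the 37 genes, 23 had lower shMTHFD2 values without overlap, where 19.8% of all tested genes did. The most abundant, NDUFB9, was at 416 ± 24.2 TPM in shMTHFD2 and 511 ± 22.1 TPM in shNC (SD, n = 3 each; log2 -0.35, SE 0.10, adjusted p = 0.0755). Split by role after the values were seen, 3 of the 30 accessory subunits and 0 of the 7 core subunits were called lower by edgeR. It called 2.47% of all tested genes lower, and at this share a count of 0 of 7 cannot set the core subunits apart. Of the core subunits 1 was lower at an unadjusted p under 0.05 (14.1% of all genes). DESeq2 called the same gene, NDUFV2, lower (6.69% of all genes). The difference between core and accessory subunits was not tested. Named after their values were seen, NDUFV2, an iron-sulfur protein, had the lowest log2 fold change of the core subunits at 143 TPM in shMTHFD2 and 189 TPM in shNC (log2 -0.46, adjusted p = 0.0979), and NDUFS7 the highest at 73.2 TPM in shMTHFD2 and 72.1 TPM in shNC (log2 0.004).

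Complex V, the ATP synthase, joins a catalytic head in the matrix to a proton-conducting membrane part by a central and a peripheral stalk. All 4 of its genes that fell encode membrane subunits. ATP5MF, subunit f, had the largest fall of any member, at 77, 57.5 and 86.6 CPM in shMTHFD2 and 122, 139 and 135 CPM in shNC (log2 -0.84, SE 0.15, adjusted p = 0.0322). ATP5MC3, a gene of subunit c in the rotor, was at 89.5, 75.3 and 91.6 CPM in shMTHFD2 and 129, 129 and 128 CPM in shNC (log2 -0.59, SE 0.10, adjusted p = 0.0271). ATP5ME, subunit e, which holds dimers together with other small membrane subunits, was at 20.7, 20.4 and 18.5 CPM in shMTHFD2 and 26.2, 27.1 and 29.5 CPM in shNC (log2 -0.47, SE 0.11, adjusted p = 0.0495). ATP5MC1, another gene of subunit c, was at 52.4, 51.3 and 51.5 CPM in shMTHFD2 and 66.7, 66.2 and 67.8 CPM in shNC (log2 -0.37, SE 0.08, adjusted p = 0.0453). The groups did not overlap for any of the 4. A separate entry joins ATP5MF to PTCD1, with 43 to 117 estimated counts in shMTHFD2 and 0 to 69.3 in shNC, so that reads of ATP5MF can be split between entries.

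Some calls depended on the scaling: in edgeR's test with DESeq2's size factors the adjusted p of ATP5MC1 was 0.0522 and that of ATP5ME 0.0558, and with the upper quartile that of NDUFB10 was 0.0608 and that of NDUFAF4 0.0585. NDUFA6, NDUFS6, ATP5MF and ATP5MC3 passed with each scaling and filter tried on all 6 libraries, and with the upper quartile these were the 4 members that passed.

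**Figure D3:**
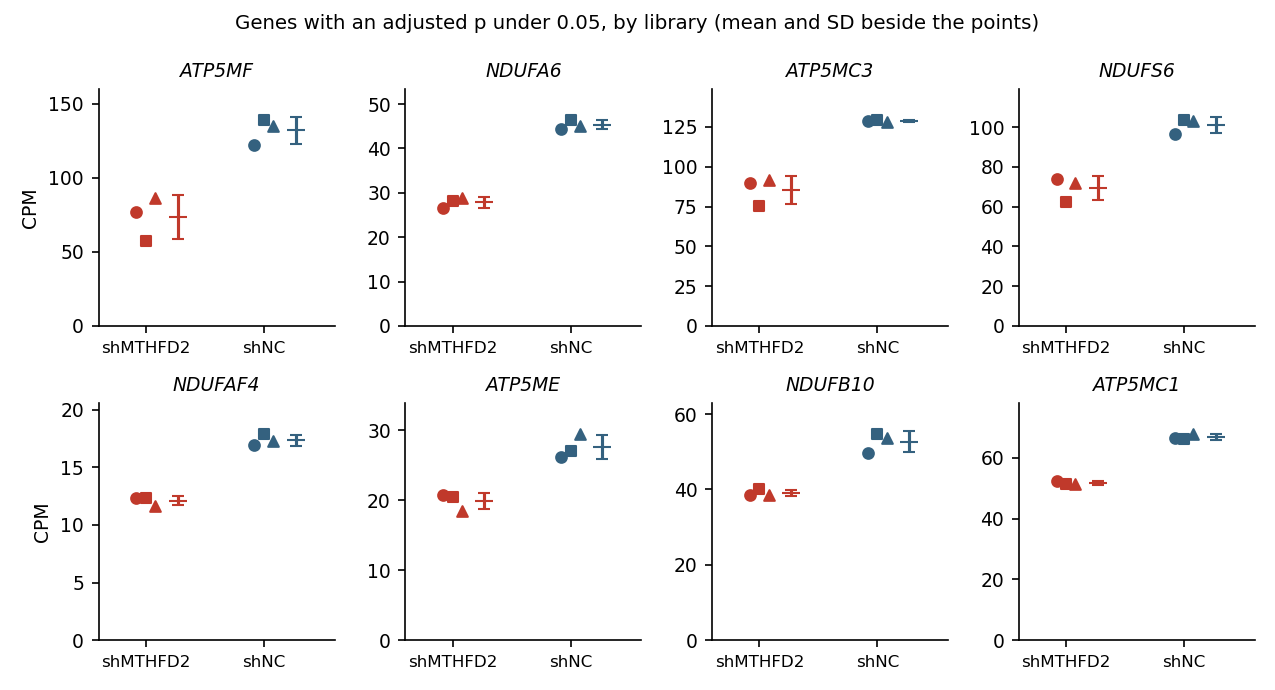
CPM of the 8 genes past the threshold in each library (y axis from 0), shMTHFD2 in red at the left and shNC in blue at the right, marker shapes for the replicate number and mean ± SD (n = 3) beside the points. In each panel the shMTHFD2 points lie below all shNC points; the log2 fold changes run from -0.84 for ATP5MF to -0.37 for ATP5MC1.

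Subunit c of the rotor is made from ATP5MC1, ATP5MC2 and ATP5MC3, which differ in the targeting peptide that is removed on import. ATP5MC2, the most abundant of the 3, was at 398, 393 and 289 TPM in shMTHFD2 and 354, 346 and 356 TPM in shNC (log2 -0.01, SE 0.15, adjusted p = 0.959). The shMTHFD2 libraries lay on both sides of control, with replicate 3 below. ATP5MC3 contributed 10.7, 9.18 and 13.3% of the summed TPM of the 3 genes in shMTHFD2 and 14.3, 14.5 and 13.9% in shNC. Reads can be shared between these paralogs, so their split is uncertain.

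All 18 tested genes of complex V had a negative log2 fold change, with a median of -0.29, where 49% of all tested genes were negative. With upper quartile scaling 17 were negative, where 5796 of all 13710 tested genes were, and ATP5MC2 turned to 0.05. Of the 18 genes, 14 were lower in shMTHFD2 without overlap, where 19.8% of all tested genes were. By structural part, divided after the values were seen, the 8 membrane subunits had a median of -0.35 with 4 called. The 5 subunits of the head and central stalk had a median of -0.27, and the 4 of the peripheral stalk one of -0.16. In the head with central stalk and in the peripheral stalk, edgeR called 0. In the head with central stalk 3, and in the peripheral stalk 1, had an unadjusted p under 0.05, and DESeq2 called 1 in each. Over all tested genes, edgeR called 2.47% lower, DESeq2 called 6.69% lower and 14.1% were lower at an unadjusted p under 0.05. Summed, the membrane subunits were at 77.7% of control, the head with central stalk at 87.8% and the peripheral stalk at 92.7%. No test was made between these parts. ATP5F1B, the catalytic beta subunit and the most abundant gene of the complex, was at 648 ± 20.2 TPM in shMTHFD2 and 717 ± 19.7 TPM in shNC (log2 -0.20, SE 0.09, adjusted p = 0.193). ATP5IF1, the inhibitor of ATP hydrolysis by the enzyme, was at 66.7, 53.8 and 67.3 CPM in shMTHFD2 and 80, 75.7 and 78.9 CPM in shNC (log2 -0.32, SE 0.11, adjusted p = 0.118).

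Promoters are shown for the 3 subunit genes with the largest falls among those that passed the threshold and have a window in the RefSeq promoter table (build GRCh38.p14), as the 250 bases before the start. Capitals mark matches on either strand to the letters searched: GCGCANGCG for NRF1, CCGGAAGT for ETS factors such as GABPA, AANATGGCG for YY1, CACGTG for the E-box, GTAAACA for FOXO factors and TGATGNAA for ATF4. NRF1 and GABPA are known activators of respiratory chain genes. Lines follow for NDUFA6 (chr22:42090773-42091022, minus strand), NDUFS6 (chr5:1801157-1801406, plus strand) and ATP5ME (chr4:674277-674526, minus strand).
NDUFA6: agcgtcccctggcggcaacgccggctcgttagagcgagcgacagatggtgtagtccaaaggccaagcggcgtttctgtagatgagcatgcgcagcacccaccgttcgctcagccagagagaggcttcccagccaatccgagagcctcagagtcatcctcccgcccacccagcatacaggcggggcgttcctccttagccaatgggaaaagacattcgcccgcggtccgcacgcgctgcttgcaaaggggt
NDUFS6: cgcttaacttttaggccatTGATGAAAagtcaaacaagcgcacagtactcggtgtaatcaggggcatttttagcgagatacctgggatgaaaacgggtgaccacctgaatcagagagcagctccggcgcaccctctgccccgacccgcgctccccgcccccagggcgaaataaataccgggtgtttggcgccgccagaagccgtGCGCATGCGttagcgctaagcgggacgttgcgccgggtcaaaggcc
ATP5ME: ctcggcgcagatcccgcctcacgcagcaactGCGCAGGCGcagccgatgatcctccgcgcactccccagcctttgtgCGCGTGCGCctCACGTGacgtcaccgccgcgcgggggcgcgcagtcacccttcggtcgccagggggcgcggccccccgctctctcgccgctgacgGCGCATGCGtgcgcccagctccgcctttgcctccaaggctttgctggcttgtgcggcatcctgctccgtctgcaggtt
The ATP5ME window held 3 NRF1 matches, at -219 to -211, -173 to -165 and -78 to -70 relative to the start, and an E-box at -162 to -157. The NDUFS6 window held an NRF1 match at -46 to -38 and a match to the ATF4 letters at -231 to -224. The NDUFA6 window held a match to none of the motifs searched, and none of the printed matches overlapped another.

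Windows were found for 91 of the 109 members, 114 in all with alternative starts. NRF1 letters stood in 22.8% of them, against 6.56% of all 35116 windows in the table, coding and non-coding genes together, and ETS letters in 13.2% against 3.42%. YY1 letters stood in 5.26% against 1.38%, the E-box in 7.02% against 6.34%, FOXO letters in 2.63% against 2.98% and ATF4 letters in 0.877% against 3.14%. Of the 6 windows of members that passed the threshold, printed or not, 2 held NRF1 letters, 1 the E-box and 1 the ATF4 letters. ETS, YY1 and FOXO letters stood in 0 of these 6. The 25 tested members with NRF1 letters had a median log2 fold change of -0.19 and the 64 with a window but without them had one of -0.20. For ETS letters these medians were -0.14 (15 members) and -0.20 (74 members). A match is a description of the letters and not a site of binding.

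Complex II, the succinate dehydrogenase of the citric acid cycle, is wholly nuclear-encoded. SDHA, the flavoprotein that oxidises succinate, was at 224, 254 and 219 CPM in shMTHFD2 and 254, 257 and 253 CPM in shNC (log2 -0.13, SE 0.09, adjusted p = 0.372). SDHB, the iron-sulfur subunit, was at 113, 128 and 96.7 CPM in shMTHFD2 and 115, 119 and 114 CPM in shNC (log2 -0.05, SE 0.12, adjusted p = 0.804). The membrane anchors SDHC (log2 -0.07, SE 0.09) and SDHD (log2 -0.04, SE 0.10) had adjusted p-values of 0.645 and 0.803. The groups overlapped for all 4 genes, edgeR and DESeq2 called 0 of 4, and 0 had an unadjusted p under 0.05. The median of -0.06 turned to 0.004 with upper quartile scaling.

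Complex III, the cytochrome bc1 complex, had 0 of 9 tested genes called by edgeR or DESeq2. At an unadjusted p under 0.05, 4 were lower (14.1% of all genes). UQCRFS1, the Rieske iron-sulfur protein, was at 88, 86.5 and 74.9 CPM in shMTHFD2 and 100, 100 and 107 CPM in shNC (log2 -0.30, SE 0.10, adjusted p = 0.103). CYC1, the cytochrome c1 that hands electrons to cytochrome c, was at 224, 225 and 211 CPM in shMTHFD2 and 256, 268 and 254 CPM in shNC (log2 -0.24, SE 0.08, adjusted p = 0.123). The small subunit UQCR11 was at 46.7 ± 3.31 CPM in shMTHFD2 and 56.5 ± 2.67 CPM in shNC (log2 -0.28, SE 0.10, adjusted p = 0.124). For these 3 genes the groups did not overlap, with shMTHFD2 lower. UQCRH, the acidic hinge protein and the gene of the complex with the highest mean over all 6 libraries, at 441 ± 47.7 TPM in shMTHFD2 and 447 ± 38.3 TPM in shNC (SD, n = 3 each), overlapped between groups (log2 -0.06, adjusted p = 0.792) and can share reads with its retrocopy UQCRHL. The core proteins UQCRC1 (log2 -0.05) and UQCRC2 (log2 0.06), named after their values were seen, also overlapped.

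CYCS, the somatic cytochrome c that carries electrons from complex III to complex IV and triggers the apoptosome when released, was at 164, 277 and 209 CPM in shMTHFD2 and 320, 356 and 333 CPM in shNC. Every shMTHFD2 library lay below control, replicate 1 farthest and replicate 2 nearest. The difference (log2 -0.63, SE 0.18) missed the threshold over all genes (adjusted p = 0.0807). It passed without shMTHFD2 replicate 2, and in DESeq2.

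Complex IV, the cytochrome c oxidase, had 0 of 14 tested genes called by edgeR and 3 by DESeq2 (COX5A, COX7B and COX8A), and at an unadjusted p under 0.05, 4 were lower and 1 was higher. COX7B was at 70, 64.2 and 64.8 CPM in shMTHFD2 and 80.1, 86.7 and 90.1 CPM in shNC (log2 -0.37, SE 0.09, adjusted p = 0.0593). COX8A was at 137, 135 and 145 CPM in shMTHFD2 and 167, 168 and 197 CPM in shNC (log2 -0.35, SE 0.10, adjusted p = 0.0754), and COX5A was at 88 ± 2.39 CPM in shMTHFD2 and 105 ± 1.44 CPM in shNC (log2 -0.26, SE 0.08, adjusted p = 0.0948). All 3 are small subunits around the mitochondrially encoded core, and for all 3 the shMTHFD2 libraries were lower without overlap. COX6A1, the most abundant gene of the oxidative phosphorylation set, was at 793, 783 and 819 TPM in shMTHFD2 and 768, 823 and 803 TPM in shNC (log2 -0.05, adjusted p = 0.689), and the groups overlapped. COX4I1 (log2 -0.18, adjusted p = 0.234), the regulatory subunit that binds adenine nucleotides, and NDUFA4 (log2 -0.19, adjusted p = 0.234), first assigned to complex I and now to complex IV, did not pass.

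Of the alternative isoforms of complex IV subunits, COX6B2 and COX7B2 had enough counts to be tested. COX6B2, a form known from testis, had the most positive log2 fold change of any member, at 12.5, 23.7 and 12.4 CPM in shMTHFD2 and 8.86, 7.25 and 11.7 CPM in shNC. The difference (log2 0.80, SE 0.30, adjusted p = 0.136; log2 0.44 without shMTHFD2 replicate 2) missed the threshold. COX6B2 made up 2.92, 5.77 and 3.32% of the summed COX6B TPM in shMTHFD2 and 2.03, 1.69 and 2.55% in shNC. COX7B2 was at 5.13 to 6.61 TPM in shMTHFD2 and 6.29 to 7.2 TPM in shNC, or 7.87, 10.9 and 8.24% of COX7B plus COX7B2 in shMTHFD2 and 8.86, 9.06 and 7.83% in shNC. The muscle and heart form COX7A1 was at 0 to 0.36 TPM in both groups, the testis form COX8C at 0 to 0.42 TPM in shMTHFD2 and 0 TPM in shNC, and NDUFA4L2, a hypoxia-induced relative of NDUFA4, at 0.35 to 0.38 TPM in shMTHFD2 and 0.24 to 0.68 TPM in shNC. These 3, ATP5MGL and UQCRHL were the 5 members with too few counts to test. COX7A2L, which links complexes III and IV into supercomplexes, was at 82.9, 123 and 66 CPM in shMTHFD2 and 73.4, 79.4 and 77.6 CPM in shNC, with replicates 1 and 2 above and replicate 3 below all controls (log2 0.24, SE 0.21, adjusted p = 0.467; log2 -0.02 without replicate 2). COX4I2 and COX6A2 are not analysed here.

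The assembly factors are described by their target complex, with no test between these groups. NDUFAF4, which acts on the quinone module of complex I, was at 12.4, 12.3 and 11.6 CPM in shMTHFD2 and 16.9, 17.9 and 17.3 CPM in shNC (log2 -0.52, SE 0.11, adjusted p = 0.0414). NDUFAF8, the assembly factor of the set with the highest mean TPM over all 6 libraries (82.3 TPM in shMTHFD2 and 133 TPM in shNC), was at 23.8, 17.7 and 27.4 CPM in shMTHFD2 and 34.3, 38.7 and 36.6 CPM in shNC (log2 -0.67, SE 0.16, adjusted p = 0.058), and NDUFAF6 was at 16.7, 12.9 and 15.8 CPM in shMTHFD2 and 24.4, 22.7 and 20.8 CPM in shNC (log2 -0.58, SE 0.14, adjusted p = 0.0526). For all 3 the groups did not overlap. The 8 complex I factors had a median of -0.29, the 9 complex IV factors (COX10 to COX20) one of -0.10 and the 4 complex II factors (SDHAF1 to SDHAF4) one of 0.17. SDHAF1, which serves iron-sulfur delivery to SDHB, was at 19.9, 29.6 and 12.4 CPM in shMTHFD2 and 12.4, 13.8 and 13.9 CPM in shNC, high in replicates 1 and 2 only (log2 0.63, SE 0.28, adjusted p = 0.193). COX19, a copper-handling factor of complex IV, was at 31.6, 45.9 and 26.2 CPM in shMTHFD2 and 21.2, 28.2 and 27.7 CPM in shNC (log2 0.43, SE 0.22, adjusted p = 0.238), and its groups overlapped.

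The 3 shMTHFD2 libraries differed in how the genes moved. The median difference from the shNC mean over the 104 tested members was -0.19, -0.17 and -0.26 in log2 CPM in replicates 1, 2 and 3, against -0.02, 0.01 and -0.001 over all tested genes. Below the shNC mean lay 85, 77 and 99 members, where 52.8%, 49.6% and 50.1% of all genes did. In all 3 libraries 71 of the 104 members lay below it, as did 3839 of all 13710 tested genes. By log2 CPM, replicate 3 was the lowest of the 3 for 55 members, replicate 2 for 31 and replicate 1 for 18. Replicate 3 had the highest MTHFD2 level of the 3. The order of the libraries differed by scale. All members summed to 89.98%, 86.9% and 88.45% of control in TPM and 87.1%, 88.6% and 83% in CPM. Complex I summed to 86.8%, 81.8% and 87.8% in TPM and 86.3%, 85% and 84.2% in CPM. A relation to the MTHFD2 level was not tested. In complex V the median differences in log2 CPM were -0.22, -0.36 and -0.30, in complex I -0.20, -0.21 and -0.24, and in complex II -0.04, 0.05 and -0.20. Replicate 2 held both the lowest value, -1.20 for ATP5MF, and the highest, 1.37 for COX6B2.

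**Figure D4:**
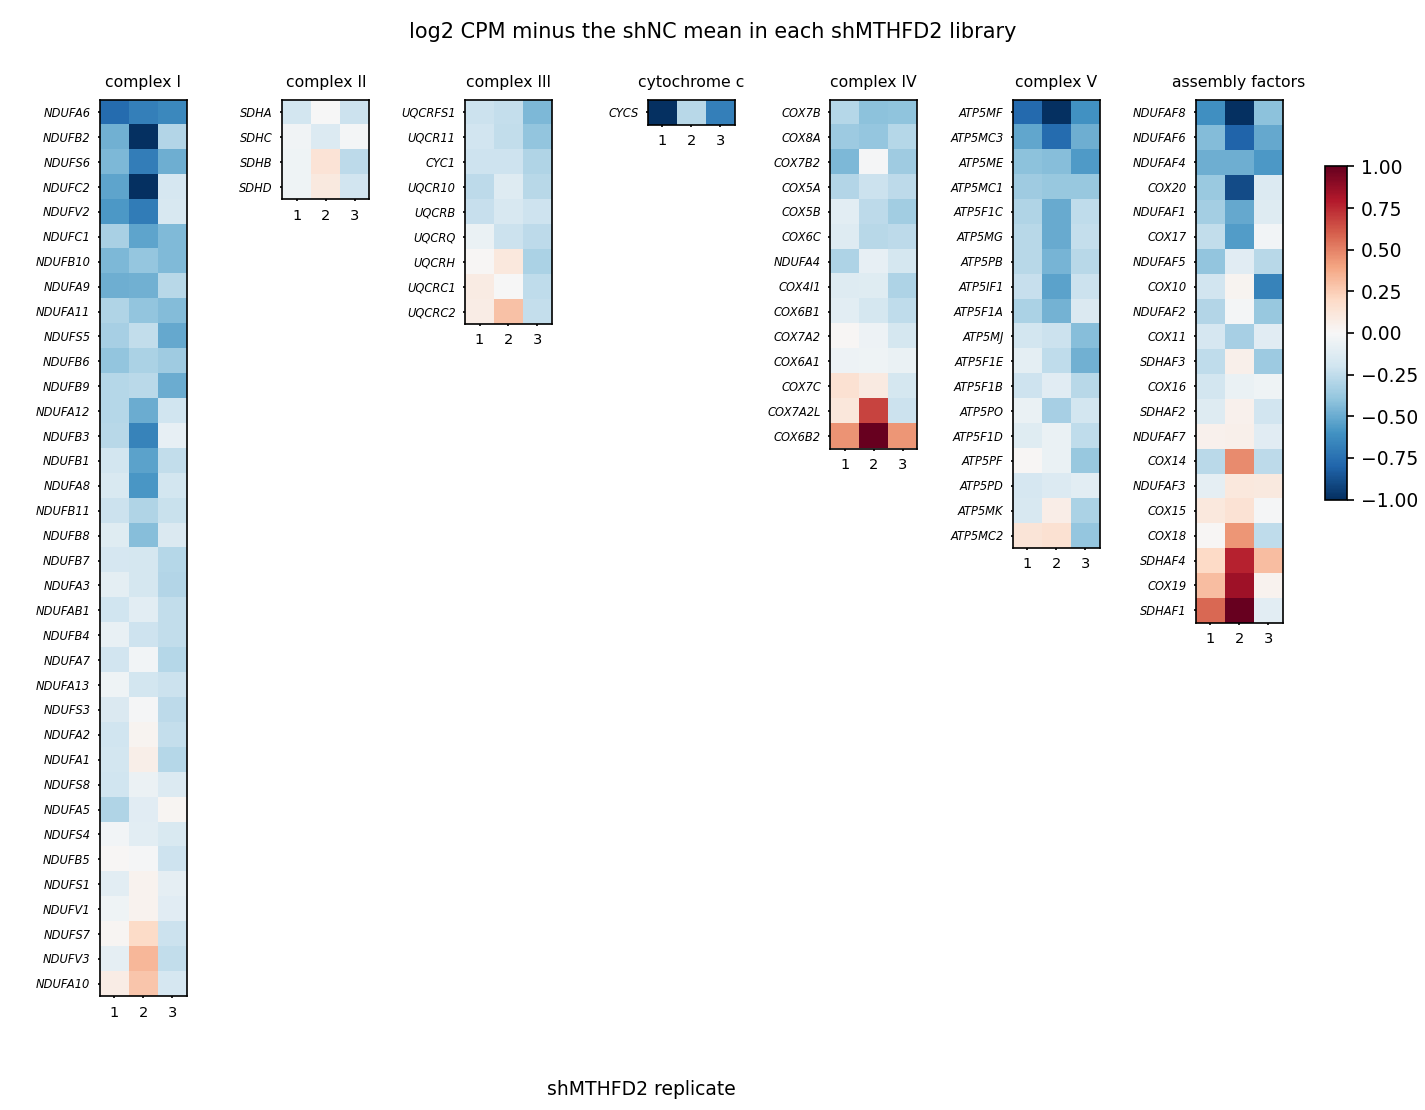
Log2 CPM of tested genes (1 gene of complex I not shown) minus the shNC mean (colour, blue lower, red higher, ending at -1 and 1) in shMTHFD2 replicates 1, 2 and 3 (columns), by complex, ordered by log2 fold change (rows). Complex V is blue in 16, 16 and 18 of 18 genes in replicates 1, 2 and 3, and the lowest and the highest value both lie in replicate 2.

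Other genes of the pathway were counted in the same fit. Of 39 further assembly factors in the table, 2 fell and 0 rose, with a median of -0.20, where 2.47% of all tested genes fell and 2.97% rose. They were COA4, a twin-cysteine factor of complex IV, at 57.1, 51.8 and 53.7 CPM in shMTHFD2 and 70.2, 78.3 and 73.2 CPM in shNC (log2 -0.45, SE 0.09, adjusted p = 0.0407), and LYRM7, which stabilises the Rieske protein before its insertion, at 29.6, 29.3 and 24.1 CPM in shMTHFD2 and 41, 39.8 and 39.3 CPM in shNC (log2 -0.53, SE 0.11, adjusted p = 0.0428). TIMM21, which links import to complex IV assembly, had a log2 fold change of -0.49 (adjusted p = 0.0517). With upper quartile scaling or the floor of 5 CPM on the mean 0 fell (COA4 adjusted p = 0.0596 and 0.0522, LYRM7 0.0615 and 0.0625). Of all genes 1.53% and 2.06% fell in these 2 fits. With total counts, without a filter and in each limma fit on TPM 1 fell (1.46% to 1.68% of all genes). In DESeq2 6 fell (6.69% of all genes). The number that fell was 7 without shMTHFD2 replicate 2 (7.09% of all genes). It was 10 without shMTHFD2 replicate 3, where 2 rose (12.6% and 13.6% of all genes). It was 0 without shMTHFD2 replicate 1 or without any 1 of the shNC replicates (0% to 0.0504% of all genes).

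Of 15 tested regulators of respiratory genes and mitochondrial transcription, SLIRP, a partner of LRPPRC that stabilises mitochondrial messenger RNA, fell. It was at 46.5, 42.7 and 39.3 CPM in shMTHFD2 and 58.7, 61 and 56.6 CPM in shNC (log2 -0.46, SE 0.10, adjusted p = 0.0452). The call was lost with every other scaling or filter and in both limma fits on TPM, where its adjusted p lay between 0.0509 and 0.0694, and it held in limma-voom (0.0469) and DESeq2 (0.00567). The other 14 did not pass, among them MTERF3 (log2 -0.56, adjusted p = 0.07) and GABPB1, the partner of GABPA (log2 -0.36, adjusted p = 0.0809), and 0 rose. The mitochondrial transcription factor TFAM (log2 -0.49, adjusted p = 0.175) and NRF1 (log2 -0.31, adjusted p = 0.195), named here after their values were seen, did not pass. With all 6 libraries 2.47% of all tested genes fell and 2.97% rose. The number of regulators that fell was 3 without shMTHFD2 replicate 2 (7.09% of all genes). It was 4 without shMTHFD2 replicate 3, where 1 rose (12.6% and 13.6% of all genes). It was 0 without any 1 of the other 4 libraries (0% to 0.0504% of all genes).

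Genes of ubiquinone synthesis and of dehydrogenases outside the complexes had medians above 0 in the fit of all libraries. Of 13 genes of ubiquinone synthesis, 0 passed in edgeR (1 rose in DESeq2, where 8.07% of all genes did) and the median was 0.11. COQ8A, an atypical kinase of the synthesis complex, was at 20.9, 32.5 and 14.7 CPM in shMTHFD2 and 10.3, 11.5 and 12.7 CPM in shNC (log2 0.98, SE 0.27, adjusted p = 0.0763), PDSS1 had a log2 fold change of -0.50 (adjusted p = 0.0873) and COQ2 one of -0.36 (adjusted p = 0.186). At an unadjusted p under 0.05, 1 was lower (14.1% of all genes) and 1 higher (14.6%). The other list held dehydrogenases that reduce ubiquinone or cytochrome c, and the electron carrier genes ETFA and ETFB. Of its 8 tested genes, 0 passed in edgeR and 1 rose in DESeq2 (8.07% of all genes). At an unadjusted p under 0.05, 2 were higher (14.6% of all genes). The median of the 8 genes was 0.13. SQOR, the sulfide oxidase, was at 152, 152 and 161 CPM in shMTHFD2 and 110, 102 and 130 CPM in shNC without overlap (log2 0.44, SE 0.11, adjusted p = 0.0581), ETFDH had a log2 fold change of 0.37 (adjusted p = 0.121) and ETFB one of 0.24 (adjusted p = 0.185). Without shMTHFD2 replicate 2, 1 gene of ubiquinone synthesis and 1 dehydrogenase or carrier gene rose (7.14% of all genes). Without shMTHFD2 replicate 3, 1 and 2 did (13.6% of all genes). The median difference from the shNC mean in log2 CPM varied by library. In shMTHFD2 replicates 1, 2 and 3 it was 0.05, 0.15 and -0.01 for ubiquinone synthesis. For the dehydrogenase and carrier genes it was -0.005, 0.29 and 0.08.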

How the data were processed

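RNA-seq of 3 shMTHFD2 and 3 shNC libraries of SCC-9 cells was used as 1 deposited table. Per the file headers, the authors deposited read counts per gene, here taken as estimated counts since many are fractional, with no scaling. They also deposited TPM, which the authors scaled by gene length and library. Build mm10 is named in the submitters' processing notes although the organism is human and 17793 of the 17862 gene identifiers matched human RefSeq genes. The counting tool is not given in the sources used here, nor is the annotation. The other 20 value columns were not used.

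Estimated counts were rounded to whole numbers, filtered with filterByExpr, scaled by TMM and tested with edgeR 4.0.16 (quasi-likelihood, robust; R 4.3.3) over 13710 genes with Benjamini-Hochberg adjustment at 0.05. The SE is the log2 fold change divided by the root of F. The biological coefficient of variation was 16.7%. Per-library log2 CPM used a prior count of 2. A count of 0 allows up to 0.151 to 0.161 CPM (3 counts, counting error only). The scripts were tested on simulated data. Alternatives were other scalings and filters, DESeq2 1.42.0, limma 3.58.1 (voom, and log2(TPM + 1) or log2(TPM + 0.1) where at least 3 libraries reached 1 TPM), each library left out, and a replicate block.

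The members, lists and structural divisions were chosen with earlier results of these data known. In the promoters, longer NRF1 and YY1 motifs were searched first; the shorter ones were chosen after their results were seen, and the order of the medians with and without NRF1 letters differed between them. Named were MTHFD2, each called member, in each complex the most abundant gene and the 3 smallest p, isoform sets, the SDH subunits, CYC1, CYCS, ATP5IF1, the 3 largest rises and falls, and up to 3 genes of each other list by p. Some of these are given only in counts. 1 gene of complex I is not reported here by name and remains in counts and sums.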

Additional observations from a re-analysis of the deposited data

How the results depend on the processing

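The number of members that fell, 8 in edgeR's test, was 4 with upper quartile scaling, total counts, no filter or a floor of 5 CPM on the mean, 5 with limma on log2(TPM + 1) and 22 with DESeq2. Of all genes, 1.53%, 1.68%, 1.51%, 2.06%, 1.47% and 6.69% fell in these fits. With 1 library left out it lay between 0 and 22, and the number that rose between 0 and 1. Same-numbered libraries deviated from their group means with correlations of 0.001, -0.237 and -0.187, and differently numbered ones with -0.069 to 0.22. With 3 libraries per group these values cannot show whether the libraries were paired. With the replicate block 0 members fell (0.0365% of all genes). The median over members, -0.20, was -0.138 with the upper quartile and -0.146 both with the floor of 5 CPM and with log2(TPM + 1). The upper quartile moved the median of all genes to 0.07. In summed CPM all members were at 86.2% of control and complex IV at 90.5%.

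With 1 library left out, between 0 and 10 further assembly factors fell and up to 2 rose, and between 0 and 4 regulators fell and up to 1 rose. Up to 1 gene of ubiquinone synthesis, 2 dehydrogenase or carrier genes and 1 fibroblast marker rose. In these fits 0% to 12.6% of all genes fell and 0.00716% to 13.6% rose.

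Of 575 values for 36 named members, 551 kept their direction and 24 turned, in 6 genes. SDHB was at 0.013 (upper quartile) and 0.005 (floor of 5 CPM). SDHD was at 0.019 and 0.011 in these, 0.003 with total counts and 0.009 in both TPM fits. UQCRH was at 0.002 with the upper quartile. COX6A1 was at 0.007 with the upper quartile and 0.0 in both TPM fits. ATP5MC2 was at 0.001 with DESeq2 and its size factors, 0.048 with the upper quartile, 0.029 with total counts, 0.039 at 5 CPM and 0.017 in both TPM fits. DCN, a fibroblast marker and not a member, was at -0.02 with limma-voom and -0.014 with the replicate block. With 1 library left out, the values ran from -0.128 to 0.066 for SDHB, -0.095 to 0.044 for SDHD, -0.125 to 0.072 for UQCRH, -0.024 to 0.436 for COX7A2L and -0.1 to 0.157 for ATP5MC2. For markers they ran from -0.155 to 0.011 for CDH1, -0.293 to 0.091 for SFN, -0.035 to 0.36 for COL1A2, -0.309 to 0.211 for DCN, -0.337 to 0.436 for PECAM1 and -0.012 to 0.596 for LYZ. The cause of these changes was not tested.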
